A study of Bos taurus with 24 samples.

Results

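The 100 genes described here were those whose level differed most from calf to calf within the same group in adrenal glands of female calves (Bos taurus). They were 100 of 11773 gene IDs that could be ranked, out of 27570 in the count tables. Bulk RNA sequencing covered 24 calves, 6 in each of 4 groups. IUCL calves came from dams cooled during gestation and IUHS calves from heat-stressed dams, and glands were taken at birth (day 0) or at weaning (day 63), 1 calf giving 1 library. No other allele or agent is given in the labels, and nothing in them ties a calf at birth to one at weaning.

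The members were chosen from the measured values. CPM values were counts scaled to a library total of 1000000, and the spread of a gene was the root of the mean of its 4 within-group variances of log2(CPM + 1), called the within-group SD here. The 11951 IDs with a mean of at least 5 CPM entered. Some IDs fell under more than 1 of the next exclusions. The 100 most abundant IDs, 80 IDs whose birth and weaning ranges did not overlap and 3 of 8 IDs listed by number in the rule were left out. The other listed IDs were below the minimum. The 100 IDs with the largest SD were then taken. High spread, overlapping ages and intermediate abundance are therefore properties of the choice, and no test is given for them.

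The adrenal gland joins a cortex, which makes glucocorticoids, mineralocorticoids and androgens, to a medulla of chromaffin cells, which makes catecholamines. A piece of the whole gland also carries vessels, nerves, blood, capsule and surrounding fat. In such bulk tissue, fewer cells of a type and less RNA per cell cannot be told apart. The tables pair no ID with a name, and 0 of the 100 members could be matched to one of 37063 named bovine genes, so the roles of the members and the tissue's defining markers were not examined here. Genes are given by Ensembl ID, and no sequence is shown.

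Library totals ranged from 12261651 to 19012206 counts. Counting noise, computed from each count on the log2(CPM + 1) scale, made up a median of 1.05% of the within-group variance of the members and at most 2.77%. Over all ranked genes the median was 5.24%. A low share follows in part from the choice of genes with a large variance. Nothing in the labels says that a calf was sampled more than once, so the spread between calves and the spread between pieces of one gland cannot be told apart.

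The within-group SD of the members ran from 0.94 to 1.89 with a median of 1.03, against a median of 0.28 over all ranked genes. An SD of 1 means that calves of the same age and treatment typically lay 2-fold from their group mean. Between the lowest and the highest of the 24 calves, CPM + 1 differed by a median of 17.2-fold in the members and by 2.24-fold over all ranked genes. The members were rather low in abundance, with a median of 16.5 CPM (quartiles 8.83 and 47.6, highest 690.0) against 35.7 CPM for all ranked genes, and together they took between 0.433% and 0.728% of each library's counts. The edge of the choice was smooth. The last genes inside, ENSBTAG00000005910, ENSBTAG00000003060 and ENSBTAG00000003171, had SDs of 0.944, 0.943 and 0.940, and the first outside, ENSBTAG00000050799, ENSBTAG00000005560 and ENSBTAG00000000310, had 0.939 each.

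**Figure D1:**
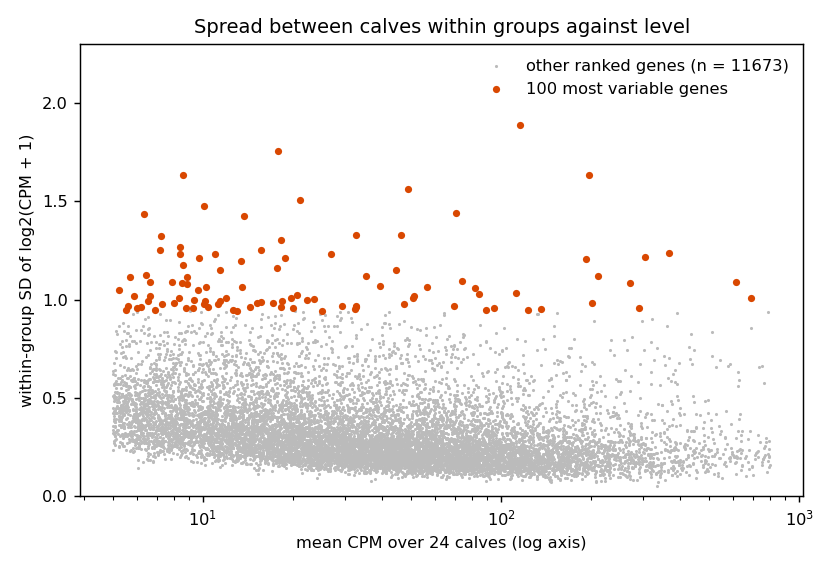
Within-group SD of log2(CPM + 1) against mean CPM over 24 calves (log axis), 1 point per ranked gene, with the 100 members in orange. The members lie at SDs from 0.94 to 1.89 and are spread over the range of abundance, with a median of 16.5 CPM.

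The gene with the largest SD was ENSBTAG00000009393, at 1.89. At birth it ran from 2.43 CPM in IUCL calf 3 through a median of 233 to 650 CPM in IUCL calf 2 among cooled calves. The heat-stressed group at birth spanned 34.5 to 485 CPM with a median of 108. At weaning the medians were 8.05 CPM (IUCL) and 7.92 CPM (IUHS). A single calf of each treatment stood far above the other 5 at weaning, IUCL calf 19 at 121 CPM (others 5.45 to 11.1) and IUHS calf 28 at 76.8 CPM (others 2.64 to 12.9). IUCL calf 3 at birth lay below every weaning calf.

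ENSBTAG00000003989 took low and high values with few between. In cooled calves at birth it was 0.177, 0.542 and 0.783 CPM in calves 3, 6 and 7 and 18.7 to 22 CPM in calves 1, 2 and 5. In cooled calves at weaning it was 0.0725 to 0.312 CPM in calves 13, 15 and 22 and 7.48, 12.6 and 37.6 CPM in calves 17, 19 and 20. Heat-stressed calves had 1 low value, 1.2 CPM in calf 5 at birth, and otherwise lay from 19.8 to 45.0 CPM at birth and from 9.22 to 38.2 CPM at weaning. In all, 7 calves were at or below 1.2 CPM and 17 at or above 7.48 CPM, and the 7 low calves comprised 6 cooled and 1 heat-stressed.

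ENSBTAG00000052720 was the reverse, high in most calves and low in a few. The lowest were 4.16 CPM in IUHS calf 1 at birth and 4.88 CPM in IUCL calf 17 at weaning. IUHS calves 2 and 4 at birth followed at 30.0 and 34.5 CPM and IUCL calf 3 at birth at 47.7 CPM. The other 19 calves lay between 152 and 380 CPM. The low calves thus came from 3 of the 4 groups, and in heat-stressed calves at weaning the gene ran only from 212 to 372 CPM.

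**Figure D2:**
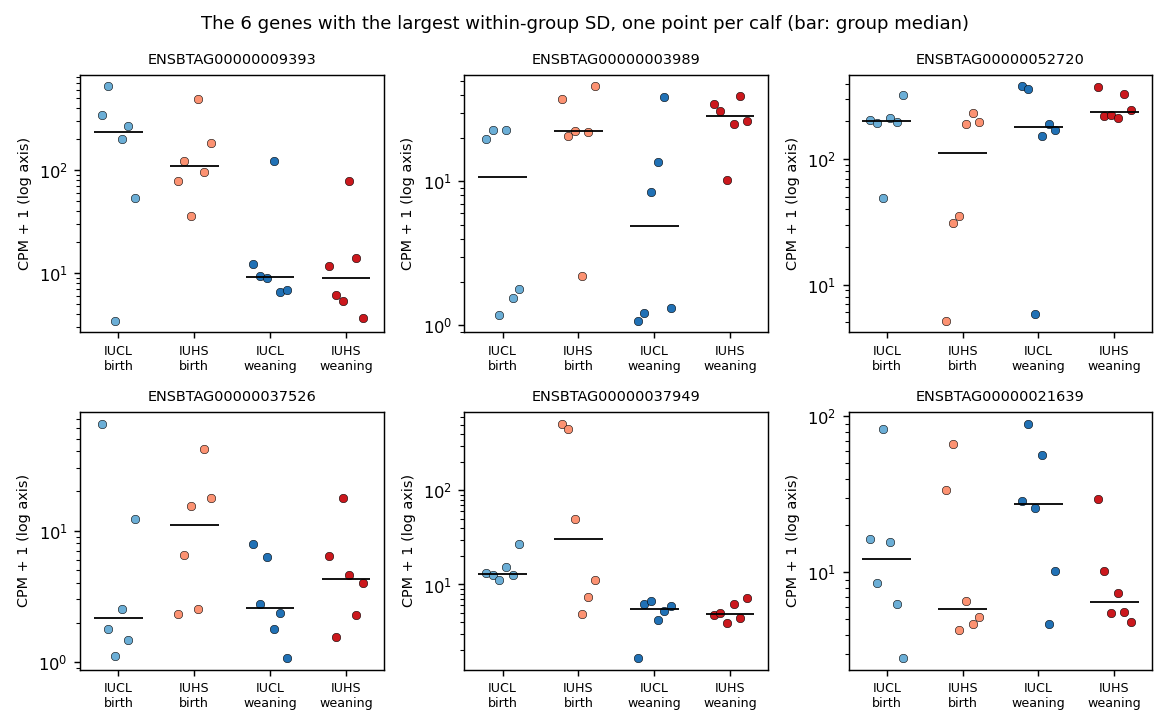
CPM + 1 (log axis) of the 6 genes with the largest within-group SD, 1 point per calf and a bar at the median of each of the 4 groups of 6. ENSBTAG00000003989 splits calves into a low and a high set, and ENSBTAG00000037949 is high in 2 heat-stressed calves at birth only.

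Several of the next members by spread were low in most calves and high in a few. ENSBTAG00000037526 had group medians from 1.16 to 10 CPM and reached 64.0 CPM in IUCL calf 1 and 40.6 CPM in IUHS calf 7, both at birth. ENSBTAG00000051588 had medians from 3.62 to 8.83 CPM, with 109 CPM in IUHS calf 4, 69.1 CPM in IUCL calf 5 and 31.5 CPM in IUCL calf 3, all at birth. ENSBTAG00000020202 was at 0 counts in IUHS calf 28 at weaning, which allows up to 0.245 CPM. It reached 59.0 CPM in IUHS calf 8 at birth and 38.5 CPM in IUCL calf 20 at weaning. It was split less clearly, with 15 calves at or below 5.68 CPM and 9 at or above 10.4 CPM. In each of these 3 the high calves came from both treatments. ENSBTAG00000006745 ran from 0.175 to 31.7 CPM, both in heat-stressed calves at birth (calves 8 and 2). ENSBTAG00000021639 reached 82.5 CPM in IUCL calf 3 and 65.7 CPM in IUHS calf 2 at birth and 88.9 CPM in IUCL calf 15 at weaning, calves that recur further on. ENSBTAG00000027727 was not low in most calves, with a median of 55.0 CPM over all calves. It was lowest in IUHS calf 5 at birth, at 1.87 CPM, and highest in IUCL calf 3 at birth, at 322 CPM.

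A sharp step between calves, as in ENSBTAG00000003989, was common among the members. With the 24 calves in order, 33 members had a gap of at least 1 on the log2(CPM + 1) scale between neighbouring calves, a 2-fold step, against 1.10% of all ranked genes. A single calf lay above the step in 8 members and below it in 7, against 0.306% and 0.544% of all ranked genes. At least 2 calves lay on each side in 18 members, against 0.255% of all ranked genes. Wide gaps follow in part from the choice of wide spread. The widest gap with a calf on its own above was in ENSBTAG00000048508, where IUHS calf 4 at birth had 82.1 CPM and the next calf 9.70 CPM.

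ENSBTAG00000021565 had a step down to nothing detected. IUCL calf 3 at birth and IUHS calves 18 and 23 at weaning had 0 counts, which allows up to 0.177, 0.199 and 0.240 CPM in these libraries. Every other calf had from 4.61 to 18.1 CPM. ENSBTAG00000025385, the third most abundant member, had 37.0 CPM in IUCL calf 6 at birth and 47.8 CPM in both IUCL calf 17 and IUHS calf 28 at weaning, while the other 21 calves lay from 184 to 655 CPM. ENSBTAG00000039992 lay between 135 and 443 CPM in 23 calves and at 19.1 CPM in IUHS calf 18 at weaning. In the first 2 of these genes the low calves came from both ages and both treatments.

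How far 1 calf carried a gene's spread was measured as its share of the within-group sum of squares. The farthest calf held a median of 22.6% in the members and 21.1% over all ranked genes. It held over 50% in 3 members, against 0.255% of all ranked genes. These were ENSBTAG00000039657 (61.8%, IUCL calf 1 low at birth), ENSBTAG00000039992 (59.3%, IUHS calf 18 low at weaning) and ENSBTAG00000048508 (52.5%, IUHS calf 4 high at birth). For most members the spread was therefore shared by several calves, as it was over all ranked genes. The farthest calf was on the high side in 44 members and on the low side in 56 (44% high, against 41.4% over all ranked genes).

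The same few calves recurred. IUCL calf 3 at birth was the farthest calf in 24 members, 13 times high and 11 times low, and IUHS calf 31 at weaning in 19, 18 of them low. Over all ranked genes these calves were the farthest in 10.7% and 6.74%. Most of the members with IUHS calf 31 farthest belong to the largest set that varies together, described further on. Members that vary together are not separate observations. IUHS calf 28 at weaning was the farthest calf in 13.4% of all ranked genes but in 0 of the members, and IUHS calf 5 at birth in 12.4% and in 5 members. IUCL calf 3 held 10.1% of the members' summed squares and IUHS calf 2 at birth 7.31%, against 7.17% and 5.25% over all ranked genes. Without IUCL calf 3, 82 of the 100 members were again among the 100 most variable genes, and without IUHS calf 31, 85 were.

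**Figure D3:**
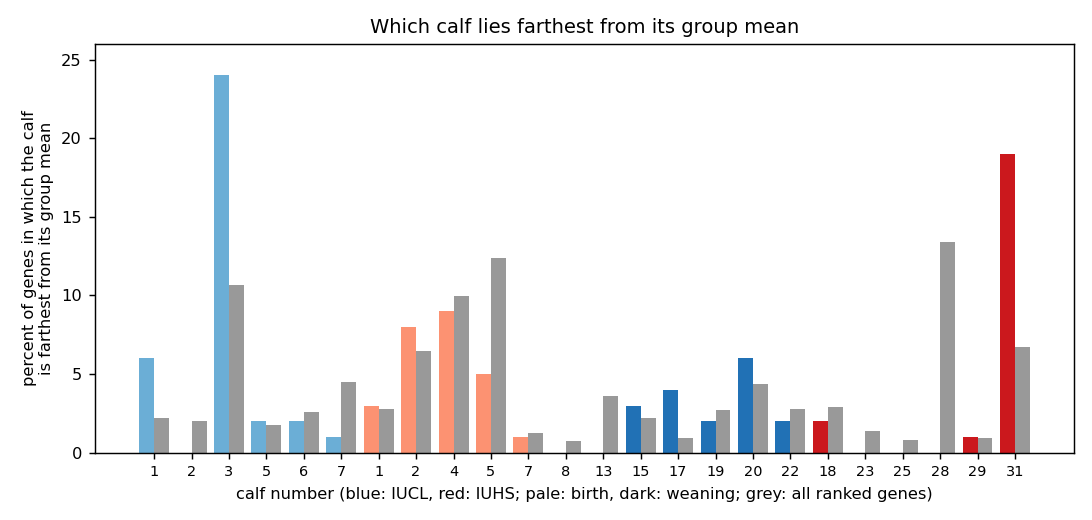
Percent of genes in which each calf lies farthest from its group mean, coloured bars for the 100 members and grey bars for all 11773 ranked genes, by calf number in the 4 groups. IUCL calf 3 at birth (24 of 100) and IUHS calf 31 at weaning (19 of 100) stand above their grey bars, and IUHS calf 28 at weaning has 0 beside 13.4%. Members are counted singly, although most of those with IUHS calf 31 farthest vary together.

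Spread was then compared between ages and treatments as a description, since the rule used the 4 variances together. The median SD of the members was 1.12 (IUCL) and 1.11 (IUHS) at birth, and 0.940 and 0.942 at weaning. It was larger at birth than at weaning in 63 members, against 55.6% of all ranked genes, and larger in heat-stressed than in cooled calves in 57, against 61.9% of all ranked genes. The group with the largest variance was IUHS at birth in 31 members, IUCL at birth and IUHS at weaning in 27 each, and IUCL at weaning in 15. Of all 11773 ranked genes it was IUHS at birth in 3922, IUCL at birth in 2624, IUHS at weaning in 3313 and IUCL at weaning in 1914. IUHS at birth was thus first and IUCL at weaning last in both. No group therefore accounted for the list.

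Single members were variable at 1 age. ENSBTAG00000005718, the second most abundant, ran at birth from 108 to 1529 CPM in the IUCL and from 195 to 2405 CPM in the IUHS group, with an SD of 1.47 at this age. At weaning its range was 189 to 286 CPM and 155 to 515 CPM, with an SD of 0.47. Its weaning values lay inside the low part of its birth range. ENSBTAG00000001592 behaved alike, with an SD of 1.52 at birth (32.9 to 864 CPM) and 0.45 at weaning (139 to 398 CPM).

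The reverse pattern, spread mainly at weaning, was largest in ENSBTAG00000025258. At birth it was at most 2.22 CPM, with medians of 0.186 CPM (IUCL) and 0.187 CPM (IUHS). IUHS calf 2 at birth had 0 counts, which allows up to 0.220 CPM. At weaning it reached 104 CPM in IUCL calf 19 with 15 CPM as the next highest. Its SD was 0.53 at birth and 1.79 at weaning. With birth medians below the 1 CPM added before the log2, the SD at birth does not show that calves were alike. The gene reached the abundance minimum only through its weaning values. ENSBTAG00000039992 was next in this pattern (0.42 and 1.29), through the low IUHS calf 18. ENSBTAG00000019612, the most abundant member at a mean of 690.0 CPM, varied at both ages, from 167 CPM in IUHS calf 2 to 2391 CPM in IUCL calf 5 at birth and from 271 to 1369 CPM at weaning.

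Among members more spread in heat-stressed calves, the ratio of the SDs was largest in ENSBTAG00000037949 (SD 2.12 in IUHS and 0.63 in IUCL calves) and ENSBTAG00000039992 (1.26 and 0.50). Among members more spread in cooled calves, it was largest in ENSBTAG00000039657 and ENSBTAG00000005146. ENSBTAG00000039657 had SDs of 0.47 in IUHS and 1.34 in IUCL calves and ENSBTAG00000005146 of 0.49 and 1.29. ENSBTAG00000005146 ran at birth from 1.05 to 27.2 CPM in the IUCL against 11.1 to 31.7 CPM in the IUHS group, and from 27.1 to 236 CPM against 36.7 to 91.6 CPM at weaning. These are the extremes of 100 genes with 12 calves a side and were not tested.

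Members were next compared with one another through their deviations from the group means over the 24 calves, which removes differences between groups. Correlations are descriptive and have no p-value, since the calves share libraries across all genes and the sets were formed on the same values. Over 4950 pairs of members the median Pearson's r was 0.01, and 4.97% of pairs reached 0.7. Average-linkage clustering at r = 0.7 gave 1 set of 20 members, 4 sets of 4, and 7 sets of 2 or 3, and 50 members joined no other.

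**Figure D4:**
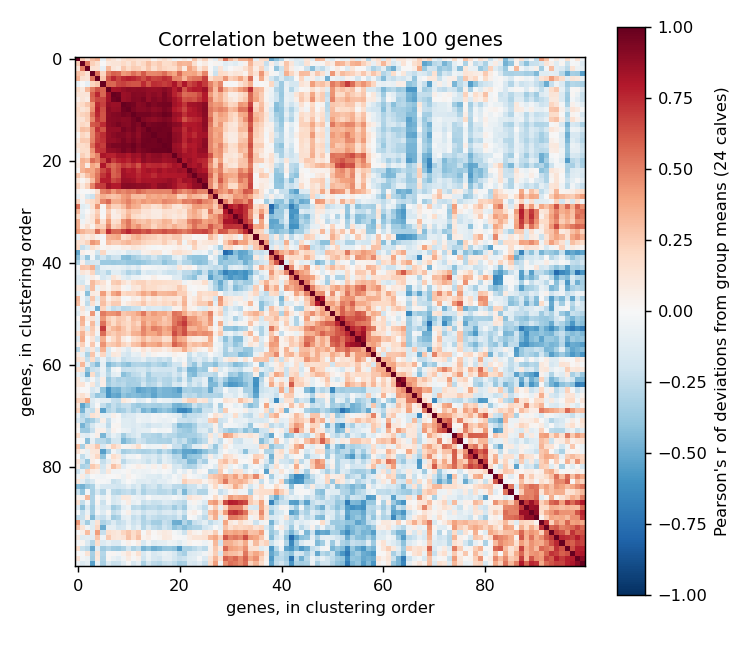
Pearson's r between the deviations of the 100 members from their group means over 24 calves, with genes on both axes in clustering order and colour from -1 to 1. One block of 20 members stands out, and most other pairs are near 0, with a median of 0.01.

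The 20 members of the largest set rose and dropped together from calf to calf. The median r between them was 0.87 over 190 pairs (Spearman's rho 0.84), and it was 0.81 without the 2 calves farthest from the median. Their mean levels ran from 5.63 to 89.0 CPM and their places in the ranking by SD from 33 to 100, so none was among the most variable 30 genes. ENSBTAG00000015415 and ENSBTAG00000017350 had the highest mean r to the rest of the set, 0.91 and 0.90.

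In IUHS calf 31 at weaning, IUHS calf 4 at birth and IUCL calf 20 at weaning all 20 members lay below their group means, by a mean of -1.95, -1.59 and -1.36 on the log2 scale. In IUCL calf 22 at weaning and in IUHS calves 2 and 5 at birth all 20 lay above, by 1.26, 1.13 and 1.02. All 20 also lay above in IUHS calves 18, 23 and 25 and IUCL calf 15 at weaning, by 0.83, 0.99, 0.89 and 0.54. The same held in IUHS calf 8 at birth, by 0.38, and all 20 lay below in IUHS calf 7 at birth, by -0.56. The 3 lowest and the 3 highest calves included both ages and both treatments. They held no cooled calf at birth, where the mean deviations ran from -0.40 to 0.56. Library totals were 15529515, 17580049 and 17060279 in the 3 lowest calves and 12810096, 13614104 and 14990966 in the 3 highest. The deepest library, IUCL calf 5 at birth with 19012206 counts, deviated by 0.17, and IUHS calf 8 at birth, with 17107923, by 0.38. The part of depth in this pattern was not tested.

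ENSBTAG00000015415 shows the size of these differences. At birth it ran from 21.1 to 55.0 CPM with a median of 24.5 under cooling, and from 8.93 to 74.1 CPM with a median of 33.0 under heat stress. At weaning it ran from 10.2 to 79.2 CPM (median 30.5) under cooling and from 4.19 to 63.0 CPM (median 44.0) under heat stress. The groups overlapped throughout, and cooled calves at birth were the least spread. Summed over the 20 members, levels in these calves were 327 to 705 CPM. The summed range was 148 to 1105 CPM for IUHS at birth, 179 to 1224 CPM for IUCL at weaning and 112 to 960 CPM for IUHS at weaning.

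**Figure D5:**
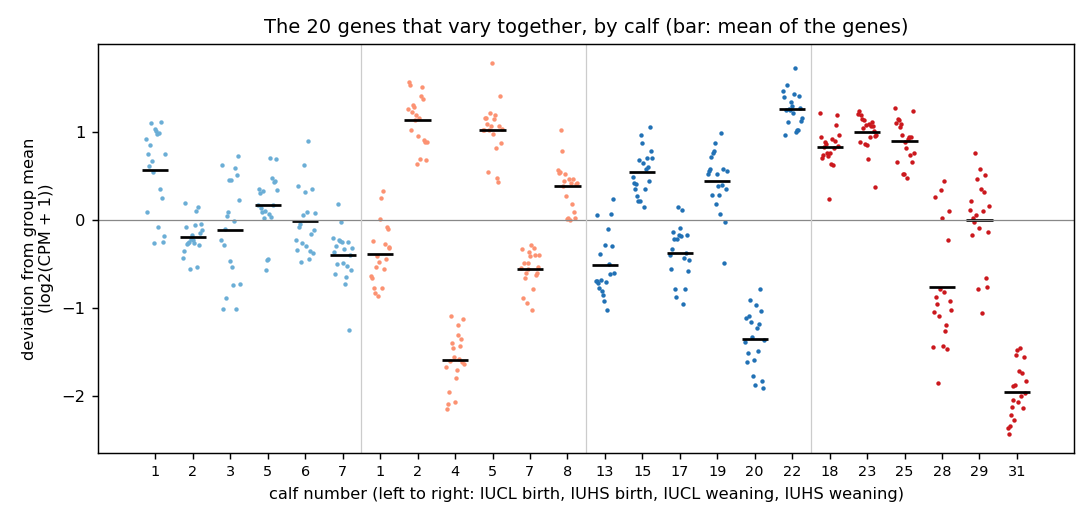
Deviation from the group mean on the log2(CPM + 1) scale of the 20 members that vary together, 1 point per gene and calf, with a bar at the mean of the 20 genes in each calf. All 20 points lie below 0 in the lowest calves, IUHS calves 31 and 4 and IUCL calf 20, and above 0 in the highest, IUCL calf 22 and IUHS calves 2 and 5. They also lie above 0 in IUCL calf 15 and IUHS calves 8, 18, 23 and 25, and below 0 in IUHS calf 7.

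The pattern of these 20 members extended beyond the list. Of the 11753 other ranked genes, 1118 (9.51%) had r of at least 0.7 with the mean of the 20, and 220 had r of -0.7 or below. With libraries scaled by TMM, a normalisation that allows for unequal composition, these numbers were 735 and 650. The number of genes following or opposing the set therefore depended on the scaling, while the 3 lowest calves were the same under both. The following genes had a median within-group SD of 0.47. Ranked genes outside the list lie below every member in SD by the rule.

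In each of the 4 sets of 4 members, IUCL calf 3 at birth was 1 of the 2 calves farthest from the median. ENSBTAG00000011437, ENSBTAG00000007596 and 2 further genes had a mean deviation of 2.73 in IUCL calf 3 and 2.20 in IUHS calf 2. ENSBTAG00000011437 had 754 and 681 CPM in these calves, against birth medians of 62.9 CPM (IUCL) and 98.9 CPM (IUHS), and at weaning it ran from 119 to 960 CPM. The set around ENSBTAG00000007485 and ENSBTAG00000001592 was also high in both calves, by 2.47 and 2.06, and low in IUHS calf 5 at birth, by -1.92. The set around ENSBTAG00000003650 and ENSBTAG00000013210 was high in IUCL calf 15 at weaning and IUCL calf 3, by 2.16 and 2.14. The last set, with ENSBTAG00000009868, ENSBTAG00000020191 and the most variable gene ENSBTAG00000009393, went the other way in IUCL calf 3, by -2.85, and was high in IUHS calf 5 at birth (1.68) and IUHS calf 28 at weaning (1.63). Without the 2 farthest calves of each set the median r within these sets was between 0.65 and 0.74. These sets of 4 and their genes were named after their values were seen.

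Heat stress was compared with cooling in the members, a contrast that the rule did not use. The within-group variances that the rule ranked are, however, the error of this contrast and set the width of the ranges. Large errors, few members called and overlapping ranges therefore follow in part from the choice. At birth, 0 of 100 members passed the threshold in edgeR's quasi-likelihood test over 15693 genes (adjusted p under 0.05), against 0% of all genes, and none passed in DESeq2 or limma-voom. At an unadjusted p under 0.05 edgeR counted 4 members (3.93% of all genes), DESeq2 5 (3.75%) and limma-voom 2 (4.03%). At weaning 0 members passed (0% of all genes). An unadjusted p under 0.05 was found in 2 members by edgeR (6.99% of all genes), 3 by DESeq2 (5.67%) and 4 by limma-voom (6.56%). The ranges of heat-stressed and cooled calves were apart in 0 members at birth, against 0.0425% of all ranked genes (0.00849% with IUHS higher and 0.0340% with IUHS lower). At weaning they were also apart in 0 members, against 0.442% (0.348% and 0.0934%). Leaving out IUCL calf 3 raised the members with an unadjusted p under 0.05 from 4 to 10 at birth, where that edgeR fit gave 2.92% of all genes. Leaving out IUCL calf 1 raised them to 8, against 5.29% of all genes. In both fits 0 members passed the threshold. IUCL calf 3 was the farthest calf in 24 members and IUCL calf 1 in 6, so members were partly chosen through the calves left out. These rises are therefore not independent of the choice and were not read as an effect of treatment.

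Fitted differences were larger than in other genes, and so were their errors. Both follow in part from the choice of genes with a large within-group variance. The median absolute log2 difference between treatments was 0.36 at birth and 0.36 at weaning in the members, against 0.12 and 0.15 over all genes tested. The median SE was 0.59 and 0.61, against 0.20 over all genes at both ages. The difference was smaller than its SE in 72 members at birth and 73 at weaning. A fitted difference of 2-fold or more was found in 10 members at birth and 13 at weaning, against 2.08% and 1.65% of all genes. With errors of this size, a 2-fold difference in a typical member could not be told from none with 6 calves a group.

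ENSBTAG00000037949 had the smallest p among members higher in heat-stressed calves at birth, with a log2 difference of 3.59 ± 0.86 (SE; edgeR adjusted p = 0.9999). Heat-stressed calves 1 and 2 had 513 and 451 CPM and calf 4 had 48.7 CPM. Heat-stressed calves 5, 7 and 8, at 3.80, 6.41 and 10.2 CPM, were in the range of or below the cooled calves, which had 10.1 to 25.9 CPM. At weaning all 12 calves lay from 0.653 to 6.25 CPM. The difference at birth thus rested on 3 of 6 calves, 2 of them far above all others. Over the alternative fits it ran from 1.37 to 3.85. Its SE draws on a spread shared by the 4 groups, not on the calves at birth alone. On the log2(CPM + 1) scale the SD of this gene at birth was 2.98 in IUHS and 0.46 in IUCL calves. At weaning the SD was 0.32 in IUHS and 0.76 in IUCL calves.

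Among members lower in heat-stressed calves at birth, ENSBTAG00000025485 had the smallest p, with -1.25 ± 0.63 (edgeR adjusted p = 0.9999). It lay from 0.796 to 3.97 CPM in heat-stressed and from 1.40 to 4.94 CPM in 5 cooled calves, and the remaining one, IUCL calf 3, had 20.3 CPM. The groups overlapped but for that calf. Without it the fitted difference was -0.13, and among the 8 calves whose numbers both treatments share, in a fit with a replicate block, it was 0.30. At weaning the member with the smallest p among those lower was ENSBTAG00000012541 (-1.61 ± 0.64, edgeR adjusted p = 0.649, and -2.49 without IUHS calf 18), at 0.708 to 8.60 CPM with a median of 1.37 in heat-stressed calves and at 2.83 to 15.3 CPM with a median of 8.03 in cooled calves. Among those higher it was ENSBTAG00000039657 (0.94 ± 0.49, edgeR adjusted p = 0.739), at 16.9 to 43.8 against 8.92 to 17.4 CPM. Both pairs of ranges overlapped.

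Averaged over ages, 0 members passed in edgeR (0% of all genes), DESeq2 or limma-voom. An unadjusted p under 0.05 was found in 2 members by edgeR (4.61% of all genes), 3 by DESeq2 (4.29%) and 1 by limma-voom (4.16%). ENSBTAG00000037949 (1.85 ± 0.61) and ENSBTAG00000012541 (-0.99 ± 0.44) had the smallest p in each direction, both with an edgeR adjusted p of 0.944. For ENSBTAG00000037949 limma-voom gave 0.82. The difference of the treatment effects between ages passed in 0 members in all 3 tools. Over all genes edgeR called 0%, and DESeq2 called 1 gene of 22828, which was not a member. At an unadjusted p under 0.05 there were 7 members in edgeR (5.56% of all genes), 7 in DESeq2 (4.85%) and 3 in limma-voom (5.10%). Without IUCL calf 3 this was 16 members in edgeR, against 6.08% of all genes, with 0 members past the threshold. As at birth, this rise is not independent of the choice of members. Here ENSBTAG00000033835 (-2.16 ± 0.72) and ENSBTAG00000025485 (2.06 ± 0.87) had the smallest p, both with an edgeR adjusted p of 0.893. The value of ENSBTAG00000025485 was 0.94 without IUCL calf 3 and 1.17 in limma-voom. ENSBTAG00000033835 had at birth 52.7 to 402 CPM under heat stress and 10.2 to 71.6 CPM under cooling, and 30.7 to 175 CPM against 53.3 to 157 CPM at weaning.

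The set of 20 members did not differ between treatments past the threshold in any member. The median log2 difference of heat-stressed from cooled calves was 0.39 at birth, with 19 of 20 above 0, and 0.02 at weaning, with 11 of 20 above 0, against 0.01 over all genes at each age. Since the 20 members follow the same calves, their common sign at birth counts as 1 observation rather than 20. The smallest unadjusted edgeR p in the set was 0.162 at birth and 0.379 at weaning.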

How the data were processed

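Whole adrenal RNA of 24 female calves, 6 in each of 4 groups taken from the sample titles, was read from 1 table of raw counts per calf. Per the submitters' processing notes, FastQC 0.11.7, Trim Galore 0.4.4, HISAT2, HTSeq and the ARS-UCD1.2 genome were used to make the deposited counts. Which gene annotation was counted, whether strand was used, and which HISAT2 and HTSeq releases ran are not given in the sources used here. The tables hold no row without a gene ID.

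CPM and log2(CPM + 1) were computed with Python 3.11.15 (numpy 2.4.6, pandas 2.3.3, scipy 1.17.1). No pair of the 276 library pairs agreed within sampling noise. The members, and every list and test here, were chosen with earlier results of these data known. Genes named were the 10 with the largest SD, those at the edge, the 3 most abundant, the extremes of the SD ratios, the 2 leading genes of each set and the smallest p in each direction per contrast; others were named after their values were seen.

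Treatment was tested with edgeR 4.0.16 in R 4.3.3 (quasi-likelihood, TMM, filterByExpr with a minimum count of 10, all 4 groups in 1 fit, Benjamini-Hochberg over 15693 genes), with limma 3.58.1 and DESeq2 1.42.0 as alternatives. The SE was derived from the test statistic and uses a spread per gene shared by the 4 groups. The scripts were tested on simulated data. Alternatives covered scaling, pseudocount, abundance minimum, measure of spread, each calf left out and a block on shared calf numbers. Limits for counts of 0 (3 counts) cover counting error only.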

Additional observations from a re-analysis of the deposited data

Results flagged for a closer look

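Dixon's criterion (95%) was applied to groups of 6 calves on the log2(CPM + 1) scale. It covered 14 members and 5 sets of members that vary together. A single calf stood apart from the other 5 in 11 of the 76 groups tested. Values of members are printed below in CPM, to which the criterion was not applied. The members were chosen for wide spread and the sets were formed on the same values, so these values are not independent of the choice. The count is a description and is set against no chance rate.

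High calves were IUCL calf 19 at weaning in ENSBTAG00000009393 (121 CPM, others 5.45 to 11.1), IUHS calf 31 at weaning in ENSBTAG00000027727 (146 CPM, others 41.7 to 60.5) and IUHS calf 4 at birth in ENSBTAG00000051588 (109 CPM, others 2.51 to 9.54). On the log2 scale, low calves were more frequent among the single members. In ENSBTAG00000003989 they were IUHS calf 5 at birth (1.2 CPM, others 19.8 to 45.0) and IUHS calf 25 at weaning (9.22 CPM, others 24.2 to 38.2). In ENSBTAG00000052720 they were IUCL calf 3 at birth (47.7 CPM, others 194 to 322) and IUCL calf 17 at weaning (4.88 CPM, others 152 to 380). ENSBTAG00000037949 was low in IUCL calf 13 at weaning (0.653 CPM, others 3.16 to 5.75), and ENSBTAG00000039657 in IUCL calf 1 at birth (0.808 CPM, others 21.3 to 85.1).

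The set of 4 members around ENSBTAG00000011437 had a mean deviation of 2.73 in IUCL calf 3 at birth, with the other 5 calves from -0.76 to -0.02. The set around ENSBTAG00000003650 had 2.16 in IUCL calf 15 at weaning, with the others from -0.61 to -0.12.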

How the results depend on the processing

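How many of the 100 members were again among the 100 most variable genes depended on the abundance minimum, the pseudocount and the measure of spread. It was 57 with log2(CPM + 5), 53 with the median absolute deviation and 42 with a mean of at least 20 CPM, a setting under which members below that level could not enter. It was 90 with TMM scaling, 88 with log2(CPM + 0.5) and 76 with a minimum of 1 CPM. Leaving out each calf gave 82 to 95, and leaving out IUHS calf 28 and IUCL calf 3 together gave 76. The largest set that varies together held 19 to 21 genes without each calf, 22 at r = 0.6 (20 shared) and 15 at r = 0.8 (all 15 shared).

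No member passed the treatment threshold under any alternative run. Over the fits that leave out 1 calf, edgeR gave 3 to 10 members with an unadjusted p under 0.05 at birth, 0 to 4 at weaning, 1 to 6 averaged over ages and 6 to 16 for the difference between ages. The same fits gave 2.92% to 5.29%, 4.07% to 8.44%, 3.15% to 6.59% and 4.04% to 6.93% of all genes. The counts of 10 and 16 came without IUCL calf 3, through which members were partly chosen. With a replicate block on the 4 calf numbers that both treatments share at birth (8 calves), 0 of 99 members passed, 12 had an unadjusted p under 0.05 (3.53% of all genes in that fit), and ENSBTAG00000025485 turned from -1.25 to 0.30 (edgeR unadjusted p = 0.469); IUCL calf 3 is not among these 8. Deviations of same-numbered calves correlated at -0.11, -0.19, 0.23 and 0.46, so the numbers were not taken to pair the calves. Beside this reversal and the 3 values of 57, 53 and 42 above, 393 alternative values kept their direction and side of the threshold, or, for the number of members again among the most variable, those past the threshold and the size of the largest set, stayed within 1.5 times. The counts at an unadjusted p are not among them. In the main fit edgeR called no gene in any treatment contrast, so the side of the threshold had little room to change. A log2 difference that shrank but kept its sign also counts as kept.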
